A study of Mus musculus with 20 samples.

Results

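The tumour necrosis factor (TNF) superfamily was examined in lumbar dorsal root ganglia (DRG), which hold the cell bodies of the sensory neurons, 1 day after transection of the sciatic nerve. Members were Tnf and every gene whose mouse symbol begins with Tnfsf (ligands) or Tnfrsf (receptors) followed by a digit. This rule found 33 of the 78258 gene identifiers in the count table: 12 ligand genes, 20 receptor genes and Tnfsf13os, an antisense transcript beside Tnfsf13. The rule uses names and no measured value, though the family was taken up with earlier results of these data known.

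The 10 animals were male mice that all received tamoxifen (100 mg/kg a day for 5 days) from 17 weeks of age, and the nerve was cut 4 weeks later. The conditional knockout (cKO) was Ahr fl/fl with Thy1CRE-ERT2/EYFP: both alleles of Ahr, which encodes a ligand-activated transcription factor, the aryl hydrocarbon receptor, were floxed, and a tamoxifen-activated Cre recombinase and a yellow fluorescent protein were driven by the Thy1 promoter. Recombination is therefore expected only in cells that use this promoter, and the ganglia were sequenced whole. Control mice were Ahr f/f or f/+ by the protocol, with no transgene named, and received the same tamoxifen. The labels differ on them: the genotype field and library names of all 5 controls say FF or ff, and their titles say Wildtype. From each mouse 1 library came from the ganglia of lumbar levels 4 to 6 on the lesioned (ipsilateral) side and 1 from the uninjured (contralateral) side. The 4 groups of 5 libraries are control contralateral, control ipsilateral, cKO contralateral and cKO ipsilateral. The contralateral ganglia are from operated mice, not from unoperated animals. One label field names a spinal cord injury while the protocol describes sciatic transection; the protocol was followed. The title of 1 cKO contralateral library gives the mouse as H6 and its library name as H61; the library name was followed, and the H61 pair rests on it.

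Ligands of this family are mostly membrane-bound trimers, some of which are cut from the surface, and each engages 1 or more receptors. Receptors either recruit TRAF adaptors, which activate NF-kB and stress kinases, or carry a death domain that can also engage caspases; a few are decoys that bind ligand without signalling. In the peripheral nervous system TNF, its receptors, the receptor Fn14 (Tnfrsf12a) and the death receptor Tnfrsf21 are known for roles in neuroinflammation, pain, axon growth and axon pruning.

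Libraries held 76.15 to 118.5 M counts (M, mega). Ahr, the targeted gene, had 21.3 to 27.2 CPM (counts per 1 M library counts, TMM-normalised) in control contralateral and 19.5 to 20.99 CPM in cKO contralateral libraries (log2 fold change -0.25, SE 0.0661, adjusted p = 0.103, edgeR), and 30.2 to 38.1 against 28.9 to 36.8 CPM on the lesioned side (-0.11, adjusted p = 1.00). The knockout contrast is thus one of whole ganglia with a small difference in Ahr transcript. Sensory neuron markers summed to 9105 to 10930 CPM in every library, and none of the 15 was at 0 in any of them. In whole ganglia fewer cells of a type and less RNA per cell cannot be told apart.

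In all, 3 receptors rose at least 2-fold on the lesioned side in both genotypes: Tnfrsf12a, Tnfrsf8 and Tnfrsf1b. Shared regulation of these genes was not tested. Their upstream sequences are shown because the genes passed this cut by fitted fold change in both genotypes. Each is the 250 bases before the RefSeq transcription start, on the gene's own strand, in GRCm38.p6. Tnfrsf12a lies at chr17:23677450-23677699, Tnfrsf8 at chr4:145315165-145315414 and Tnfrsf1b at chr4:145246871-145247120, all on the minus strand. Capitals mark matches on either strand to 4 searched motifs: AP-1 (TGANTCA), the cyclic AMP response element (TGACGTCA), the core of the AhR response element (GCGTG) and the NF-kB consensus.
Tnfrsf12a: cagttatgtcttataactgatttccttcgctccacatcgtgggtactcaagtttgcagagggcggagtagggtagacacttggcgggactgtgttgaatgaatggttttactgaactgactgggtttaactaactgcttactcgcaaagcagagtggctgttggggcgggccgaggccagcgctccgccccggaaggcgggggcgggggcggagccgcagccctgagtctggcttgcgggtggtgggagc
Tnfrsf8: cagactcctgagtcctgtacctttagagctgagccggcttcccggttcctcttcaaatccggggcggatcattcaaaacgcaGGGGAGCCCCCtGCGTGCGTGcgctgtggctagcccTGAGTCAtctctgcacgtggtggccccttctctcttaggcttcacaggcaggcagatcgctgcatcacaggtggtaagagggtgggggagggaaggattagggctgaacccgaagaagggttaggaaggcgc
Tnfrsf1b: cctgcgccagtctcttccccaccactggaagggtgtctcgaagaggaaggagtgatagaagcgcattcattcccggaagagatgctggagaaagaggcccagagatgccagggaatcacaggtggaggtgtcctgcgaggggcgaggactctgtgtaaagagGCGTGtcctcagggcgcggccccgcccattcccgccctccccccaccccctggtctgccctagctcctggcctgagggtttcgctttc

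The window of Tnfrsf12a held none of the 4 motifs. That of Tnfrsf8 held 1 AP-1 match (from position -132, counted back from the start), 2 overlapping AhR cores (-156 and -152) and 2 overlapping NF-kB matches (-168 and -167). That of Tnfrsf1b held 1 AhR core (-88). Of 32851 RefSeq promoter windows of the same length, 6.75% held AP-1, 1.55% the cyclic AMP response element, 28.2% the AhR core and 7.25% the NF-kB consensus. The reference listed 29 windows for 25 members, of which 5, 0, 10 and 3 held these motifs in turn. A match describes letters in the window, not a bound site.

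The first question was how transection changes the family, between the lesioned and uninjured sides of the same mice. The main fit compared group means and had no term for the mouse. In control mice 11 of the 30 members tested were called (adjusted p under 0.05, edgeR quasi-likelihood test, adjusted over 28564 genes), 7 higher and 4 lower on the lesioned side. That is 36.7% of the members, beside 29.9% of all genes tested (13.8% higher and 16.0% lower). In cKO mice 10 of 30 members were called, 7 higher and 3 lower, or 33.3% beside 31.3% of all genes (16.2% higher and 15.1% lower). The family as a whole was therefore called about as often as any genes, and the median log2 fold change of the members was 0.03 in control and -0.14 in cKO mice, beside -0.00472 and -0.03 over all genes. By role, 10 of 20 receptors were called in control and 9 of 20 in cKO mice, and 1 of 9 ligands (Tnfsf13b) was called in each; receptors were not tested against ligands. In both genotypes 3 members were called and at least 2-fold higher, where 2.44% of all genes were in control and 2.53% in cKO mice. Libraries of the 2 sides did not overlap for 10 of 30 members in control mice, beside 23.6% of all genes, and for 8 of 30 in cKO mice, beside 20.2%. The same 9 members were called in both genotypes: Tnfrsf12a, Tnfrsf8, Tnfrsf1b, Tnfrsf10b, Tnfrsf1a, Tnfrsf21 and Tnfrsf23 rose, and Tnfrsf13c and Tnfsf13b fell.

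**Figure D1:**
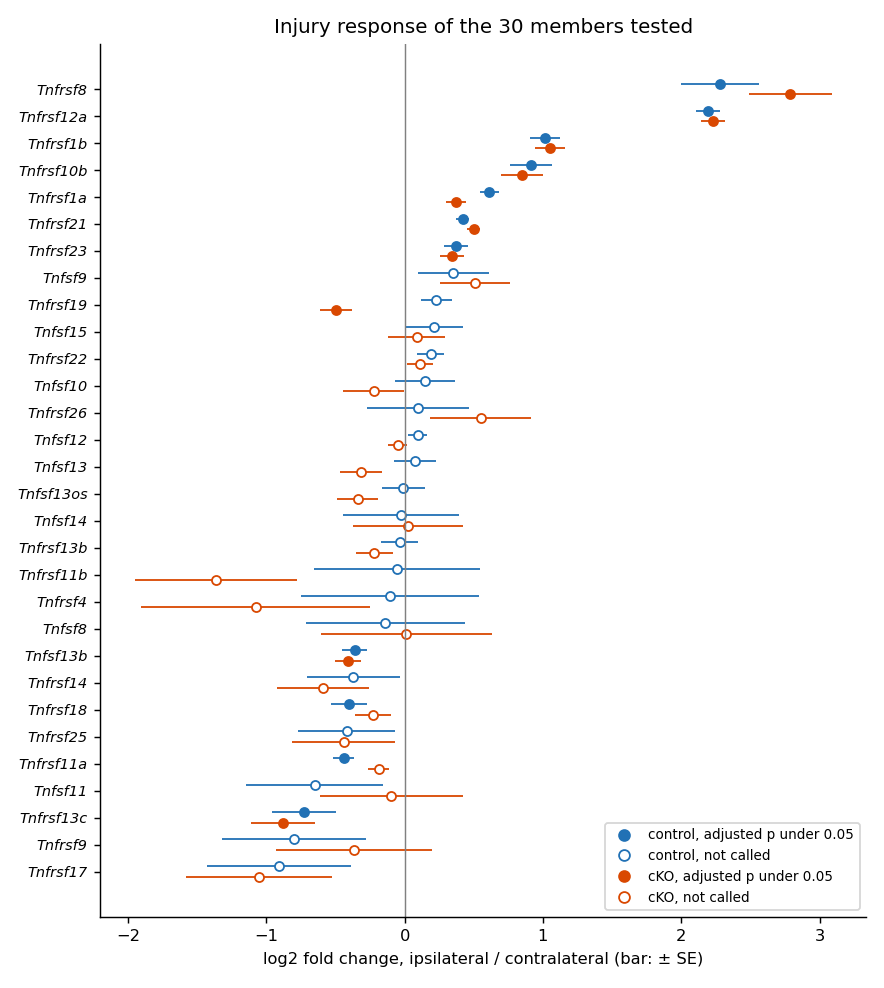
Log2 fold change (x axis, ipsilateral over contralateral, bars ± SE) of the 30 members tested (y axis) in control (blue) and cKO mice (orange); filled points passed an adjusted p of 0.05. Tnfrsf8 and Tnfrsf12a lie above 2 in both genotypes, most ligands lie near 0 with open points, and Tnfrsf19 has opposite signs in the 2 genotypes.

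Tnfrsf12a encodes Fn14, the receptor of the ligand TWEAK (Tnfsf12). In the order of mice H62, H63, H65, H96 and H97, the control contralateral libraries held 7.38, 6.82, 6.62, 9.19 and 6.38 CPM. Their ipsilateral libraries held 30.3, 31.9, 35.2, 35.2 and 34.0 CPM. In the order H61, H64, H95, H99 and H100, the cKO libraries held 7.24, 7.12, 7.65, 6.42 and 8.08 CPM contralaterally and 34.1, 37.8, 35.6, 31.2 and 32.5 CPM ipsilaterally. All 10 ipsilateral libraries stood above all 10 contralateral ones, with a gap of more than 3-fold between them. The log2 fold change was 2.19 (SE 0.0867, adjusted p = 1.09e-13) in control and 2.23 (SE 0.0869, adjusted p = 7.70e-14) in cKO mice, and within single mice the rise ranged from 3.84-fold to 5.33-fold. The difference between the genotypes' responses was 0.04 (SE 0.118, adjusted p = 0.938).

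Tnfsf12, the TWEAK gene, was the most abundant ligand per length. Its control libraries held 15.7, 15.6, 15.9, 16.8 and 15.9 CPM contralaterally and 16.6, 17.4, 14.9, 18.4 and 18.1 CPM ipsilaterally. Its cKO libraries held 15.7, 19.5, 19.6, 14.6 and 17.5 CPM, and 17.3, 17.0, 16.9, 16.4 and 16.3 CPM. The sides overlapped in both genotypes, and neither fold change passed (0.10, SE 0.0697, adjusted p = 0.345 in control; -0.05, SE 0.0697, adjusted p = 0.641 in cKO mice). Receptor and ligand of this pair thus differed in that only the receptor's change was called; the difference between them was not tested. Tnfsf12 shares 48.3% of its exon bases with Tnfsfm13, a read-through gene on the same strand, so some of its reads may have been left out or assigned there.

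Tnfrsf8 encodes CD30, a receptor best known from lymphocytes. It was near the limit of detection on the uninjured side, with 0.550, 0.122, 0.139, 0.257 and 0.299 CPM in control and 0.102, 0.216, 0.244, 0.133 and 0.236 CPM in cKO libraries. On the lesioned side it had 1.17, 1.39, 1.28, 1.57 and 1.27 CPM in control and 1.07, 1.34, 1.42, 1.53 and 1.09 CPM in cKO libraries. Every ipsilateral library was above every contralateral one. The log2 fold change was 2.28 (SE 0.282, adjusted p = 2.48e-06) in control and 2.79 (SE 0.298, adjusted p = 3.12e-07) in cKO mice, the highest of the members, from 9 to 164 counts per library. Its ligand Tnfsf8 (CD30L) stayed between 0.00934 and 0.365 CPM over the 20 libraries and was not called. The summed CPM of 10 lymphocyte markers was 4.28 to 15.7 in control contralateral, 5.52 to 10.2 in control ipsilateral, 3.28 to 8.99 in cKO contralateral and 5.14 to 8.01 in cKO ipsilateral libraries, and 0 of these markers were called in either injury comparison.

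Tnfrsf1b (TNFR2) is the TNF receptor without a death domain, found on immune, glial and endothelial cells. Control libraries held 10.2, 7.98, 8.66, 10.5 and 7.99 CPM contralaterally and 18.5, 18.4, 16.3, 19.4 and 19.3 CPM ipsilaterally. The cKO libraries held 8.54, 11.04, 9.96, 7.80 and 9.37 CPM, and 16.9, 24.6, 17.9, 17.5 and 19.98 CPM. It rose in each of the 10 mice, by 1.80-fold to 2.41-fold, without overlap between the sides. The log2 fold changes were 1.02 (SE 0.108, adjusted p = 4.36e-07) and 1.05 (SE 0.109, adjusted p = 2.30e-07).

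Tnfrsf1a (TNFR1) is the death-domain receptor of TNF and is made by most cells. Control libraries held 35.5, 37.6, 39.0, 41.7 and 38.8 CPM contralaterally and 58.4, 63.5, 50.8, 58.6 and 63.2 CPM ipsilaterally. The cKO libraries held 43.4, 55.3, 48.8, 40.6 and 45.5 CPM, and 58.9, 62.7, 60.5, 57.5 and 62.6 CPM. The sides did not overlap within either genotype, and the cKO contralateral libraries reached above the control ones. The rise was 0.61 (SE 0.0700, adjusted p = 9.16e-07) in control and 0.37 (SE 0.0698, adjusted p = 0.000314) in cKO mice on the log2 scale. The difference between these rises was -0.24 (SE 0.0986, adjusted p = 0.491, edgeR).

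TNF itself was close to absent as a transcript. Tnf had 0 to 27 counts per library and 157 in all, and did not reach the count filter. In CPM the libraries held 0.0846, 0.0980, 0.0597, 0.224 and 0.0249 in control contralateral and 0.0488, 0.0515, 0.0478, 0.117 and 0.0771 in control ipsilateral ganglia. The cKO libraries held 0.0455, 0.228, 0.0222, 0 and 0.0497 contralaterally and 0.172, 0.0678, 0.0718, 0.0747 and 0.0925 ipsilaterally. The groups overlapped throughout; the library at 0 allows up to 3 counts, or 0.0362 CPM, and such limits cover counting error only. Tnf was thus not tested for a change, and a small change could not be seen at this depth. Both of its receptors were called higher.

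**Figure D2:**
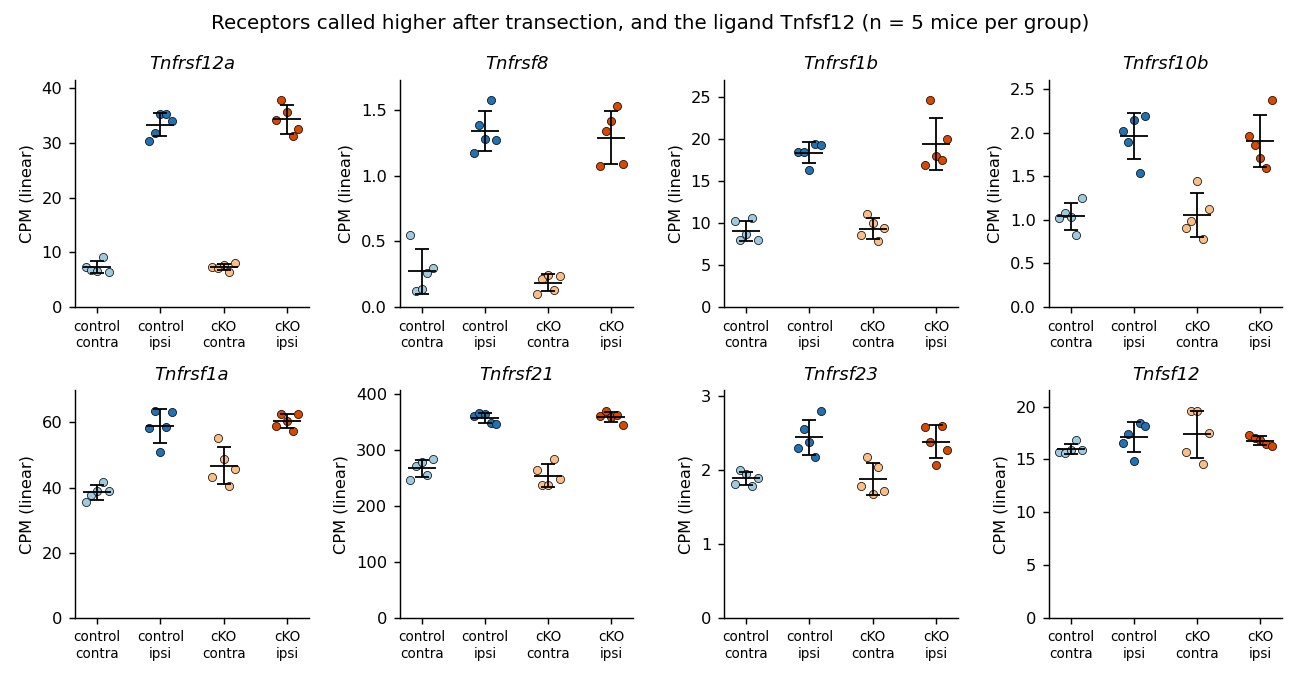
CPM (linear y axes from 0) of the 7 receptors that rose in both genotypes, and of the ligand Tnfsf12, by group (x axis); points are single libraries and bars are mean ± SD of 5 mice. Tnfrsf12a, Tnfrsf8 and Tnfrsf1b stand at least 2-fold higher on the ipsilateral side in both genotypes, while the Tnfsf12 groups overlap.

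Tnfrsf21 (DR6), a death-domain receptor of neurons known for axon pruning, was the most abundant member. Control libraries held 247, 272, 279, 256 and 283 CPM contralaterally and 361, 366, 364, 349 and 347 CPM ipsilaterally. The cKO libraries held 264, 238, 237, 285 and 248 CPM, and 361, 369.9, 359, 363 and 345 CPM. Each ipsilateral library was above all contralateral ones, with little spread within a group. The rise was 0.42 (SE 0.0457, adjusted p = 4.40e-07) and 0.50 (SE 0.0457, adjusted p = 3.14e-08) on the log2 scale.

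The receptors of TRAIL (Tnfsf10), a ligand that can trigger apoptosis, were measured next. Tnfrsf10b (DR5), the signalling TRAIL receptor of the mouse, rose from 1.04 ± 0.152 to 1.96 ± 0.264 CPM in control mice (SD, n = 5 here and below). In cKO mice it rose from 1.05 ± 0.253 to 1.90 ± 0.299 CPM. Its log2 fold changes were 0.92 (SE 0.151, adjusted p = 7.31e-05) and 0.85 (SE 0.151, adjusted p = 0.000161), in each of the 10 mice, and the sides did not overlap. The decoy receptor Tnfrsf23 rose by 0.37 (SE 0.0883, adjusted p = 0.00257) and 0.34 (SE 0.0883, adjusted p = 0.00497), from 1.88 to 2.44 and from 1.88 to 2.38 CPM. Tnfrsf22, the neighbouring decoy, had 0.19 and 0.11 and was not called. Transcripts of Tnfrsf22 and Tnfrsf23 share 377 stretches of 100 bases, 8.97% and 9.31% of those in each, so the counting could have split reads between them. The ligand Tnfsf10 held 2.90 to 6.72 CPM over the 20 libraries and was not called in either genotype (0.15, SE 0.218 and -0.22, SE 0.219).

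The members called lower in at least 1 genotype were Tnfsf13b, Tnfrsf13c, Tnfrsf11a, Tnfrsf18 and Tnfrsf19. Tnfsf13b encodes the B-cell-activating factor BAFF and fell from 4.52 ± 0.299 to 3.52 ± 0.429 CPM in control mice, by 0.36 on the log2 scale (SE 0.0919, adjusted p = 0.00465). In cKO mice it fell from 4.27 ± 0.476 to 3.21 ± 0.336 CPM, by 0.41 (SE 0.0920, adjusted p = 0.00162), and it was lower in each of the 10 mice. It was the 1 ligand called. Tnfrsf13c, the BAFF receptor of B cells, fell from 0.670 ± 0.126 to 0.405 ± 0.0774 CPM (-0.73, SE 0.232, adjusted p = 0.0213) and from 0.711 ± 0.198 to 0.387 ± 0.129 CPM (-0.88, SE 0.230, adjusted p = 0.00551). Its call in control mice was lost without H63 or H97 (-0.71, adjusted p = 0.0594 without H63; -0.55, adjusted p = 0.143 without H97). TACI (Tnfrsf13b), a second BAFF receptor, held 1.62 to 3.16 CPM and was not called, nor was BCMA (Tnfrsf17), which had 0 to 17 counts. APRIL (Tnfsf13), a ligand of TACI and BCMA, had log2 fold changes of 0.08 in control and -0.32 (SE 0.151, adjusted p = 0.119) in cKO mice. Without H99 it was called lower in cKO mice (-0.41, adjusted p = 0.0364). Tnfsf13 shares 60.0% of its exon bases with the read-through gene Tnfsfm13, so its fold changes and its level may be affected as for Tnfsf12.

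Tnfrsf11a encodes RANK, a receptor best known from osteoclast formation, and was the fourth most abundant member per length in control contralateral ganglia. It fell in control mice from 28.4 to 34.7 CPM on the uninjured side to 20.99 to 23.8 CPM on the lesioned side, without overlap (-0.44, SE 0.0757, adjusted p = 0.000120). In cKO mice the sides overlapped, with 22.4 to 31.2 and 21.9 to 24.6 CPM (-0.19, SE 0.0756, adjusted p = 0.0674). With the mouse as a fixed replicate block in edgeR this difference in cKO mice was called (-0.18, adjusted p = 0.0335), and with the mouse as a random effect in limma-voom it was not (adjusted p = 0.0562). It was also called without H64 (adjusted p = 0.0438), without H95 (adjusted p = 0.0442) and by limma on FPKM (log2, pseudocount 0.1; adjusted p = 0.0492), and over all alternatives its adjusted p ranged from 0.0335 to 0.252. The difference between the genotypes' responses was 0.25 (SE 0.107, adjusted p = 0.498), so a response confined to controls is not shown. Its ligand RANKL (Tnfsf11) held 0.0241 to 0.357 CPM and was not called. Tnfrsf18 (GITR) was also called lower in control mice (1.15 ± 0.246 to 0.868 ± 0.0810 CPM, -0.40, SE 0.128, adjusted p = 0.0209). That call was lost without H63, H65 or H96 (adjusted p = 0.0502, 0.0560 and 0.205), and without H96 the fold change was -0.22. The exons of Tnfrsf18 overlap those of Gm16008 on the other strand over 27.2% of their length.

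Tnfrsf19 (TROY), a receptor of glia and neurons that can join the Nogo receptor complex, had opposite signs in the genotypes. In control mice it had 3.34 to 4.30 CPM contralaterally and 3.21 to 5.66 CPM ipsilaterally (0.23, SE 0.112, adjusted p = 0.137), higher in 4 of 5 mice by the ratio of sides, which ran from 0.961 to 1.46. Without H65 it was called higher in control mice (0.29, adjusted p = 0.0381). In cKO mice it fell from 4.36 to 5.25 CPM to 2.89 to 3.88 CPM without overlap (-0.50, SE 0.112, adjusted p = 0.00173), with ratios of 0.551 to 0.788. The difference between the responses was -0.73 (SE 0.159), the member with the smallest p in this test, yet its adjusted p over all genes was 0.485 (edgeR). DESeq2 called it (-0.73, adjusted p = 0.0422), and the adjusted p ranged from 0.0422 to 0.844 over the alternatives. Summed satellite glia markers overlapped between the groups at 2074 to 2283, 2261 to 2513, 2100.0 to 2416 and 2160.2 to 2450 CPM (control contralateral and ipsilateral, then cKO); of the 6 genes 2 had a positive difference between the responses. All 6 fibroblast, 13 macrophage, 7 neutrophil and 7 endothelial markers had a negative one, as Tnfrsf19 did, with medians of -0.78, -0.34, -0.71 and -0.25, and 0 were called. Positive differences were found for 1 of 10 Schwann cell markers (median -0.09), 8 of 15 sensory neuron and 5 of 10 lymphocyte markers, with 0 called. The part of these markers in the Tnfrsf19 result was not tested.

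**Figure D3:**
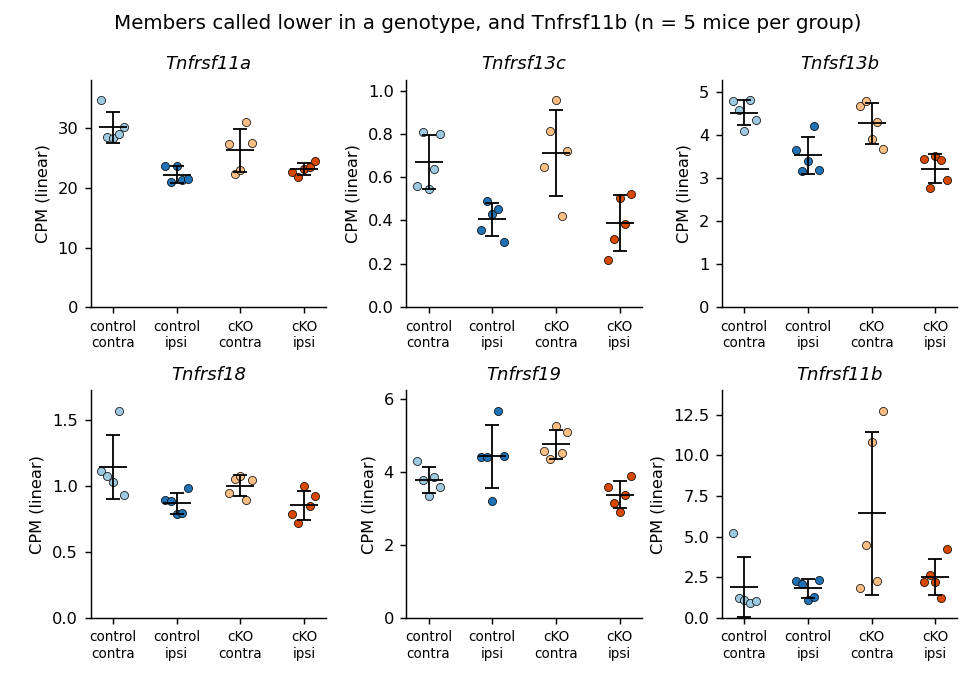
CPM (linear y axes from 0) of the 5 members called lower in at least 1 genotype, and of Tnfrsf11b, by group (x axis); points are single libraries and bars are mean ± SD of 5 mice. Tnfrsf19 is lower on the ipsilateral side in the cKO libraries, and Tnfrsf11b spreads from 1.82 to 12.7 CPM within the cKO contralateral group.

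The remaining members were not called in either injury comparison. Among ligands these were Tnfsf9, Tnfsf14 and Tnfsf15, besides those named above. Among receptors they were Tnfrsf4, Tnfrsf9, Tnfrsf11b, Tnfrsf14, Tnfrsf25 and Tnfrsf26. Several of these are lymphocyte costimulators, and all but Tnfrsf11b and Tnfrsf14 held 0.586 CPM or less in every library. Tnfrsf11b had log2 fold changes of -0.05 (SE 0.600) in control and -1.36 (SE 0.585, adjusted p = 0.0887) in cKO mice. Without H62 these were 0.70 (adjusted p = 0.424) and -1.36, the latter called (adjusted p = 0.0445). The fixed replicate block (mouse) called Tnfsf9 higher in cKO mice (0.51, adjusted p = 0.0397), while it was not called without the block (adjusted p = 0.140) or with the mouse as a random effect (adjusted p = 0.0976). The ligands Tnfsf4 (12 counts in all, 15 libraries at 0) and Tnfsf18 (68 counts in all, 8 libraries at 0) did not reach the count filter, like Tnf. Tnfsf13os had log2 fold changes of -0.00833 in control and -0.34 (SE 0.150, adjusted p = 0.0937) in cKO mice, and in cKO mice it was called with the fixed replicate block (-0.33, adjusted p = 0.0178) but not with the mouse as a random effect (-0.32, adjusted p = 0.0674). It overlaps exons of Tnfsf13 on the opposite strand over 221 bases, and the strand setting of the counting is not given in the sources used here.

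Levels between genes were compared per kilobase (kb) of merged exons in the control contralateral ganglia. Tnfrsf21 stood at 65.1 ± 3.81 CPM per kb, Tnfrsf1a at 14.9 ± 0.872, Tnfsf12 at 10.6 ± 0.330, Tnfrsf11a at 5.05 ± 0.438 and Tnfrsf12a at 3.77 ± 0.584 CPM per kb. Tnfrsf1b at 2.38 ± 0.318 and Tnfsf13 at 1.64 ± 0.213 CPM per kb followed. The libraries of each of these genes were separate from those of the next in this order, except that Tnfrsf11a and Tnfrsf12a overlapped. From Tnfsf13os (0.921 ± 0.137 CPM per kb) downwards, neighbours overlapped apart from Tnfrsf23 (0.476 ± 0.0223) and Tnfrsf13c (0.327 ± 0.0616). Tnf stood at 0.0599 ± 0.0462 CPM per kb, in place 29 of 33. On the lesioned side of control mice the Tnfrsf12a mean was 17.3 CPM per kb, above that of Tnfsf12 (11.3 CPM per kb).

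The second question was whether the family differs between cKO and control mice, whose ganglia had a small difference in Ahr transcript. In the uninjured (contralateral) ganglia 0 of 30 members were called by edgeR, beside 0.0735% of all genes. At an unadjusted p under 0.05 there were 6 members (20%, beside 17.5% of all genes): Tnfrsf1a, Tnfrsf19, Tnfrsf11b, Tnfsf13 and Tnfsf13os with positive and Tnfrsf11a with negative fold changes in cKO. DESeq2 called 2 of them, Tnfrsf1a (0.29, adjusted p = 0.00832) and Tnfrsf11b (1.78, adjusted p = 0.0447), beside 3.65% of all genes. Without mouse H99 edgeR called 5: Tnfrsf1a (0.33), Tnfrsf11b (1.99), Tnfsf13 (0.50), Tnfsf13os (0.53) and Tnfrsf11a (-0.26), or 5 of 30, beside 11.5% of all genes called in the same fit.

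Tnfrsf1a had the smallest adjusted p of the members in this comparison (0.28, SE 0.0700, adjusted p = 0.101), and it ranged from 0.00748 to 0.384 over the alternatives. Only Tnfrsf19 had genotypes whose contralateral libraries did not overlap, at 3.77 ± 0.359 in control and 4.75 ± 0.391 CPM in cKO (0.33, SE 0.112, adjusted p = 0.143), which held for 1.52% of all genes. Markers of other cells were read beside these values. All 6 fibroblast, all 13 macrophage, all 7 neutrophil and all 7 endothelial markers had positive fold changes in cKO contralateral ganglia, and 0 of these 33 were called. Of 10 lymphocyte markers 1 was positive and 0 were called (median -0.48). The summed levels overlapped between the genotypes: fibroblast markers ran from 801.6 to 1356 CPM in control, against 934.8 to 2236 CPM in cKO libraries, and macrophage markers from 105.7 to 189.6 and from 104.6 to 271.6 CPM. Their part in the genotype differences was not tested.

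Tnfrsf11b encodes osteoprotegerin, the secreted decoy of RANKL, made by mesenchymal cells. Its cKO contralateral libraries held 1.82 (H61), 4.45 (H64), 10.8 (H95), 2.29 (H99) and 12.7 CPM (H100). In the same libraries the fibroblast markers summed to 1003, 2236, 1980.3, 935 and 1685 CPM. The 3 libraries high in Tnfrsf11b were thus the 3 high in fibroblast markers, though not in the same order. Among control contralateral libraries H62 held 5.21 CPM with a fibroblast sum of 1356, and the other 4 held 0.896 to 1.19 CPM with sums of 801.6 to 1065. Its difference between genotypes on the uninjured side was 1.77 (SE 0.595, adjusted p = 0.150), and without H62 it was 2.61 (adjusted p = 0.0775). On the lesioned side Tnfrsf11b had 1.09 to 2.32 CPM in control and 1.22 to 4.22 CPM in cKO, with fibroblast sums of 924 to 1519 and 848 to 1558 CPM. There the control library with the highest sum, H96 at 1519 CPM, held 1.30 CPM of Tnfrsf11b, less than H62 held on the uninjured side at a lower sum. The cKO library H100 on the lesioned side had both the highest sum there, 1558 CPM, and the highest Tnfrsf11b, 4.22 CPM. These values are given because of their spread and were chosen after they were seen.

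**Figure D4:**
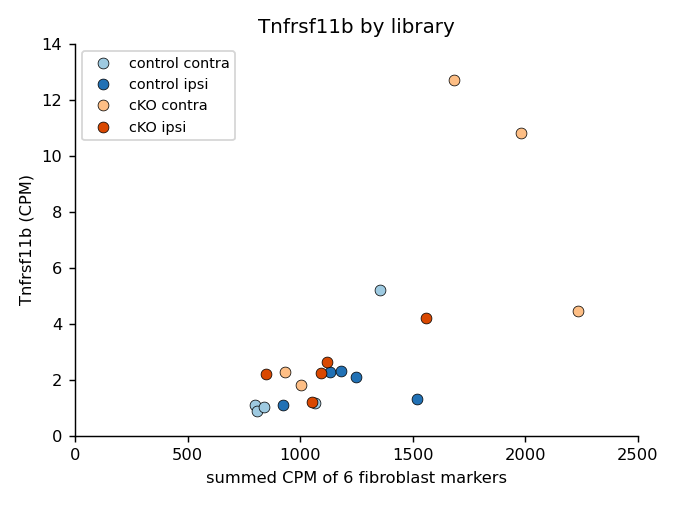
Tnfrsf11b (y axis, CPM) against the summed CPM of 6 fibroblast markers (x axis), 1 point per library, coloured by group. The 2 highest points, at 10.8 and 12.7 CPM, are cKO contralateral libraries with sums of 1980.3 and 1685 CPM.

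In the lesioned ganglia 0 of 30 members were called between genotypes by edgeR, beside 0.007% of all genes, with 2 at an unadjusted p under 0.05 (Tnfrsf19 and Tnfrsf4; 6.67%, beside 2.36% of all genes) and 0 called by DESeq2. No member's genotypes were without overlap on this side, beside 0.599% of all genes. The difference between the injury responses was called for 0 of 30 members by edgeR, as for 0.0% of all genes, with 3 members at an unadjusted p under 0.05 (Tnfrsf19, Tnfrsf1a and Tnfrsf11a; 10%, beside 9.8% of all genes) and 1 called by DESeq2 (Tnfrsf19), beside 0.0385% of all genes. For the 7 receptors that rose in both genotypes this difference ran from -0.24 (Tnfrsf1a) to 0.51 (Tnfrsf8, SE 0.409). The SEs ran from 0.0645 to 0.409, so equal responses are not shown.

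Genes that act with the family were then described in the injury comparison, from lists chosen with earlier results of these data known. Of 8 receptors of the superfamily with other symbols, Ltbr, the lymphotoxin beta receptor, rose by 0.36 (17.996 ± 0.657 to 23.1 ± 1.11 CPM, adjusted p = 0.000952) and Ngfr, the p75 neurotrophin receptor, fell by 0.10 (739 ± 26.2 to 691 ± 22.5 CPM, adjusted p = 0.0450) in control mice. None of the 8 was called in cKO mice, where Ltbr had 0.10 and Ngfr -0.07 (25% and 0% called, beside 29.9% and 31.3% of all genes). Of 6 such ligands 3 were tested (Lta, Ltb and Eda) and 0 were called in either genotype. Cd40lg, Fasl and Cd70 did not reach the filter.

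Among 20 receptor adaptors and ubiquitin regulators 8 rose and 3 fell in control mice, and 7 rose and 3 fell in cKO mice (55% and 50% called, beside 29.9% and 31.3% of all genes). Tnip2, which restrains NF-kB activation through A20, rose by 1.31 (SE 0.105, adjusted p = 4.74e-09; 3.05 to 7.59 CPM) and 1.23 (SE 0.104, adjusted p = 9.95e-09; 3.47 to 8.11 CPM). The adaptor Traf4 rose by 0.58 and 0.39. Cyld, a deubiquitinase that limits NF-kB, fell by 0.27 and 0.29, and the ubiquitin ligase Birc2 fell by 0.20 and 0.14. The list's median log2 fold change was 0.10 in control and -0.00837 in cKO mice.

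Of 18 kinases, inhibitors and subunits of NF-kB, 5 rose and 2 fell in control mice, and 8 rose and 4 fell in cKO mice (38.9% and 66.7% called, beside 29.9% and 31.3% of all genes), with medians of 0.08 in each genotype. Bcl3, an atypical inhibitor protein that partners NF-kB subunits in the nucleus, rose by 1.26 (SE 0.135, adjusted p = 6.37e-07) and 1.34 (SE 0.135, adjusted p = 2.67e-07), from 9.97 to 24.0 and from 9.01 to 22.8 CPM. The related Nfkbiz rose by 0.94 and 0.78, and the subunit Rela by 0.49 and 0.50 (37.9 to 53.1 and 37.4 to 52.9 CPM). Tab3, a partner of the kinase TAK1, fell by 0.26 in both.

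In the death branch 4 of 10 genes rose and 4 fell in control mice, and 2 rose and 4 fell in cKO mice (80% and 60% called, beside 29.9% and 31.3% of all genes). Bid, which links death receptors to mitochondria, fell by 0.38 and 0.27, and the stress kinase Map3k5 by 0.28 and 0.22. Of 8 sheddases and their regulators 4 rose and 1 fell in control mice and 1 rose in cKO mice (62.5% and 12.5% called, beside 29.9% and 31.3% of all genes). Frmd8, a stabiliser of the sheddase complex, rose in both, by 0.30 and 0.33. Adam17, which releases TNF from the cell surface, rose by 0.25 (SE 0.0808, adjusted p = 0.0233) in control and had 0.11 (adjusted p = 0.313) in cKO mice.

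Of 22 genes known as NF-kB targets of TNF, 19 were tested; 4 rose in control and 5 in cKO mice, and 0 fell (21.1% and 26.3% called, below the 29.9% and 31.3% of all genes). Il6, a cytokine, rose from 0.217 ± 0.0699 to 2.23 ± 0.260 CPM in control mice (3.33, SE 0.249, adjusted p = 1.99e-09). Its cKO libraries went from 0.121 ± 0.0827 to 2.51 ± 0.278 CPM (4.34, SE 0.272, adjusted p = 1.08e-10). Csf1, a macrophage growth factor, rose by 2.13 and 1.93 (21.7 to 94.9 and 25.4 to 97.2 CPM). The chemokine Ccl7 rose by 1.40 and 1.30. Most of the list, such as Icam1, Vcam1, Cxcl10 and Sod2, was not called. The list's median was 0.53 in control and 0.06 in cKO mice. None of the genes of these 7 lists was called by edgeR between genotypes on either side or in the difference between responses.

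**Figure D5:**
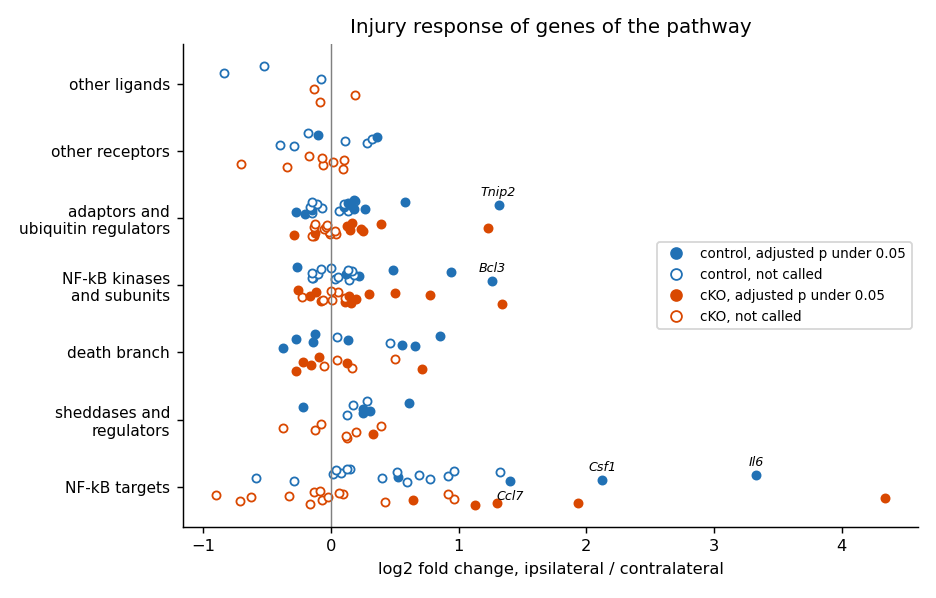
Log2 fold change (x axis, ipsilateral over contralateral) of single genes in 7 lists of the pathway (y axis) in control (blue) and cKO mice (orange); filled points passed an adjusted p of 0.05. Most points lie within 1 of 0, and Il6, Csf1, Tnip2, Bcl3 and Ccl7 stand above 1 in both genotypes.

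Markers of other cells were read beside the injury results. In control mice all 13 macrophage markers had positive fold changes and 1 was called (Mrc1, 0.79, adjusted p = 0.0283), and in cKO mice 9 of 13 were positive and 0 were called. Their sums were 105.7 to 189.6 against 122.6 to 230.9 CPM in control and 104.6 to 271.6 against 154.6 to 256.7 CPM in cKO mice, overlapping in both. Neutrophil markers were positive in 7 of 7 genes in control and 2 of 7 in cKO mice, with 0 called and sums of 33.2 to 104.4 against 32.0 to 141.2 CPM and 19.0 to 155.2 against 47.3 to 133.0 CPM. No marker of either list was at 0 in any library. Fibroblast markers were positive in 6 of 6 genes in control and 1 of 6 in cKO mice (medians 0.32 and -0.48, 0 called). Endothelial markers were positive in 7 of 7 and 3 of 7, with Tek (0.41) and Flt1 (0.35) called in control mice. Of 15 sensory neuron markers 5 were called lower and 0 higher in each genotype, Isl1 and Rbfox3 in both. Of 6 satellite glia markers Glul and Kcnj10 were called higher and Cadm2 lower in both genotypes. Lymphocyte markers were positive in 3 of 10 and 2 of 10. The part of these cells in the results on the family was not tested.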

How the data were processed

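RNA was sequenced from lumbar DRG of 10 mice as stranded mRNA libraries with paired reads of 150 bases, per the labels' protocols. The authors deposited whole-number exonic counts per gene, not normalized, and FPKM values of the same libraries, the latter used only as alternatives. HISAT2 and Picard and the builds mm10 and mm39 are named in the submitters' processing notes, without a role; the counting program, annotation and strand setting are not given in the sources used here. Of 316795 counts from 1 to 29, 62.57% were even, so a fragment may often have added 2 counts.

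Identifiers were matched to GENCODE M21 symbols (51487 of 78258 matched; all 33 members). For the counts, edgeR 4.0.16 under R 4.3.3 was used with TMM, filterByExpr (minimum count 10, minimum total 15; 28564 genes kept, 30 members) and 1 model of all 20 libraries, tested by the robust quasi-likelihood F statistic. There were 5 comparisons: injury in each genotype, genotype on each side, and their interaction. P-values were adjusted by Benjamini-Hochberg over all genes tested and called under 0.05. CPM are TMM-normalised. Analysis code was tested on simulated counts.

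The ganglia of a mouse share its number, so numbers pair libraries across sides. Their deviations from group means, over 19365 genes, correlated with a median of 0.308 (-0.160 to 0.668) over mice, above 0.1 in 8 of 10. The main fit had no block; the block was an alternative, with DESeq2 1.42.0, limma 3.58.1 on log2 FPKM (pseudocount 1 or 0.1) and voom, RLE factors, no filter, mean CPM of at least 1, mouse-number range as covariate, only the libraries compared, and leaving out each mouse.

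Values in every library are given for Tnf, for members called after injury with an absolute log2 fold change of at least 1, for members called between genotypes, and for Tnfrsf1a, Tnfrsf1b, Tnfrsf12a, Tnfrsf21 and Tnfsf12; from each list up to 3 highest and 2 lowest called genes that reach a mean of 1 CPM are named, except 1 gene that is not reported here. Members, lists and this rule were chosen with earlier results of these data known. Other genes were named after their values were seen. Promoter sequences are RefSeq's, in GRCm38.p6; in 22 of the 29 windows, and in each printed one, the first 30 transcribed bases lie in a GENCODE M21 transcript of the gene.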

Additional observations from a re-analysis of the deposited data

Results flagged for a closer look

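In 6 of 120 groups of 5 libraries, each a member in a group, 1 library stood far from the others; 6 are expected at 1 in 20. The gap to the nearest library is given as a share of the group's range, with a critical value of 0.71. In control contralateral ganglia these were Tnfrsf11b in H62 (0.933; 5.21 CPM beside 0.896 to 1.19), Tnfrsf18 in H96 (0.724; 1.57 CPM beside 0.935 to 1.11) and Tnfsf12 in H96 (0.713; 16.8 CPM beside 15.6 to 15.9). In cKO contralateral ganglia they were Tnfrsf14 in H99 (0.768; 0.314 CPM beside 1.12 to 1.37), Tnfrsf22 in H99 (0.774; 3.51 CPM beside 2.45 to 2.69) and Tnfsf8 in H64 (0.907; 0.330 CPM beside 0.0482 to 0.0745). All 6 lay on the uninjured side.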

How the results depend on the processing

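Over the alternatives, injury called 8 to 11 members in control mice and 8 to 13 in cKO mice. The lowest came with a mean CPM of at least 1, which leaves fewer members tested. For members called in the main fit, 450 values under alternatives counted as the same, 7 lost the call and 0 reversed. The calls lost were Tnfrsf18 in control mice 5 times and Tnfrsf13c in control mice 2 times. Most of the 450 kept direction and call. The others were mean log2 ratios of the sides within each range of mouse numbers, which carry no test. They counted as the same when within an SD over mice of the main fold change. Fold changes on log2 FPKM with a pseudocount were smaller for low genes by construction. Between genotypes on the contralateral side 2 members were called with DESeq2, against 0; leaving out 1 mouse at a time gave 0 to 5, the 5 without H99. The interaction gave 1 with DESeq2, against 0; the cause was not tested. Leaving out 1 mouse gave 9 to 11 for injury in control, 10 to 11 in cKO, 0 to 0 for genotype on the ipsilateral side and 0 to 0 for the interaction. With the mouse as a fixed replicate block 11 members were called in control and 13 in cKO mice, gaining Tnfrsf11a, Tnfsf9 and Tnfsf13os in cKO mice, and 0 in the interaction, beside 30%, 31.6% and 0% of all genes in that fit. With the mouse as a random effect these counts were 11, 10 and 0, beside 32.5%, 34.1% and 0%, and none of the 3 was called in cKO mice. Depth limits Tnf, Tnfsf4 and Tnfsf18, which had 157, 12 and 68 counts in all 20 libraries.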

Other observations

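Single libraries were often the highest or lowest of their group over many members at once. In control contralateral ganglia H96 was the highest of 5 libraries in 18 of 33 members, among them Tnf (0.224 CPM), Tnfrsf4 (0.398 CPM), Tnfrsf9 (0.573 CPM), Tnfsf8 (0.365 CPM) and Tnfsf11 (0.357 CPM). The same library had the highest lymphocyte marker sum of all 20 (15.7 CPM). In cKO contralateral ganglia H99 was the lowest in 18 of 33 members, with the lowest sums of all libraries for lymphocyte (3.28 CPM), neutrophil (19.0 CPM) and macrophage markers (104.6 CPM). On the lesioned side H65 was the lowest control library in 16 of 33 members, with a macrophage sum of 122.6 CPM beside 193.1 to 230.9 CPM in the other 4. The same counts were not made over all genes, so these patterns are not shown to be particular to the family. They were noticed after the values were seen, and the part of the marker levels in them was not tested.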
